A study of Homo sapiens with 9 samples.

Results

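The enzymes of serine synthesis and of folate one-carbon metabolism were followed at the RNA level in cells labelled PC9/GR. PC9/GR is a derivative of the human lung adenocarcinoma line PC9, whereas the count columns name A549. There were 3 libraries labelled shNC (a control hairpin) and 3 each labelled sh1-HUMT and sh2-HUMT (hairpins named for the long noncoding RNA HUMT). The members are 9 named genes, PHGDH, PSAT1, PSPH, SHMT1, SHMT2, MTHFD1, MTHFD1L, MTHFD2 and ALDH1L2, and all 9 were found among the 27059 genes of the deposited table and among the 18540 genes tested. All groups grew in RPMI 1640 with fetal bovine serum, and neither a treatment time nor the number of clones behind a group is given in the labels. The labels do not say that replicates came from separate cultures, so p-values measure the spread between these libraries, which may be technical.

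Cells build serine from the glycolytic intermediate 3-phosphoglycerate through PHGDH, PSAT1 and PSPH. Serine hydroxymethyltransferases then split serine into glycine and a one-carbon unit carried on folate, and a parallel set of enzymes in the mitochondrion and the cytosol interconverts the carrier's forms. In proliferating cells the mitochondrial arm is known to make formate from serine, and the cytosolic arm to use it for purines, thymidylate and methionine. The transcription factor ATF4 is known to act on several of these genes when amino acids are short.

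Library totals ran from 21891060 to 22159921 estimated counts, and no library held values identical to another. The count columns are headed A549 with NC, Si_1 and Si_2, whereas the labels name PC9/GR and hairpins, so each value below rests on a match of arm and replicate number. HUMT, which the RefSeq gene table lists as a synonym of LINC00857, was not lower in the libraries that carry its name. It stood at 9.36, 9.85 and 8.51 CPM (counts scaled to library size) in shNC, at 9.17, 9.58 and 10.1 in sh1-HUMT and at 8.75, 9.60 and 8.50 in sh2-HUMT. The 3 groups overlapped (log2 fold change 0.06, adjusted p = 0.685, and -0.05, adjusted p = 0.740, edgeR), so the groups are called by their labels throughout. Epithelial markers were uneven, with KRT7 at 1385 to 2139 CPM, KRT8 at 1447 to 1783 CPM and KRT18 at 1160 to 1479 CPM. CDH1 was at 101.5 to 132.1 CPM, KRT19 at 64.5 to 108 CPM and EPCAM at only 7.42 to 10.6 CPM. The lung lineage factor NKX2-1 did not exceed 0.269 CPM and the surfactant gene SFTPC 0.230 CPM. Of the other lung lineage markers, SFTPB did not exceed 0.679 CPM, NAPSA was at 1.885 to 3.027 CPM and FOXA2 at 64.38 to 78.49 CPM.

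Promoter windows of 4 members are shown, of which the first 3 genes fell in both hairpin groups and the last rose. They are the RefSeq windows of build GRCh38.p14, from 250 bases before to 50 bases after a gene's annotated start, at chr9:78296875-78297174 (PSAT1, plus strand), chr2:74198365-74198664 (MTHFD2, plus strand), chr6:150866236-150866535 (the first of 4 MTHFD1L windows, plus strand) and chr17:18363501-18363800 (SHMT1, minus strand). Capitals mark matches, on either strand, to 4 motifs: TGATGNAAN (the C/EBP-ATF response element), CACGTG (an E-box), TGACNNNGC (the antioxidant response element core) and CCAAT (the CCAAT box).
PSAT1: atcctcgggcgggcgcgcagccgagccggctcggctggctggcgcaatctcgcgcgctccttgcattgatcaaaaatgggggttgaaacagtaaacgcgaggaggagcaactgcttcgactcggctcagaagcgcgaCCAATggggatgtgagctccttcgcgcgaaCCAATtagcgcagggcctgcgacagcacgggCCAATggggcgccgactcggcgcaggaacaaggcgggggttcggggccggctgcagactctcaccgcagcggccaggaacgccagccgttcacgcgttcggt
MTHFD2: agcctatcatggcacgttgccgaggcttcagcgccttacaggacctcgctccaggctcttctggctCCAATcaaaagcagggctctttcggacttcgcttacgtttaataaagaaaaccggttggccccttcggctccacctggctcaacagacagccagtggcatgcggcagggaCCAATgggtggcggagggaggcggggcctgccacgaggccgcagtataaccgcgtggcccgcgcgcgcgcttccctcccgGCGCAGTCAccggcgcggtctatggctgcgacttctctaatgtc
MTHFD1L: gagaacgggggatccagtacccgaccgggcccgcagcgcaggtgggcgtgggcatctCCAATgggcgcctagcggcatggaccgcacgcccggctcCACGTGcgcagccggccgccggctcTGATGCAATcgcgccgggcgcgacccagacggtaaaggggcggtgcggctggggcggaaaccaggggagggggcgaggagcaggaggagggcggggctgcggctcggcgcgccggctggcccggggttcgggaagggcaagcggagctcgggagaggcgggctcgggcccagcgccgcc
SHMT1: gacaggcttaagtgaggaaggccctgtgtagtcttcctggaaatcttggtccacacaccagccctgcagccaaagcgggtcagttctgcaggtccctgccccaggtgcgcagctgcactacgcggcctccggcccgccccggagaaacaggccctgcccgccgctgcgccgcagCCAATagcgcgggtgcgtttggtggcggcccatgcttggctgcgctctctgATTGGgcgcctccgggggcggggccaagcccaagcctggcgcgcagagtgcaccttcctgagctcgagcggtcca

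Windows were found for 6 members (PHGDH, PSAT1, MTHFD1, MTHFD1L, MTHFD2 and SHMT1). Those of PHGDH, which also fell in both hairpin groups, and of MTHFD1 are not shown above. The CCAAT box was in at least 1 window of each of these 6 genes, in genes that fell as in SHMT1 and MTHFD1, and in 39.7% of all 27305 genes with a window (34.6% of 35116 windows). The C/EBP-ATF element was in 1 member, MTHFD1L (3 of its 4 windows), and in 4.45% of all genes (3.61% of windows). The E-box was in MTHFD1L and MTHFD1 (8.77% of all genes), and the antioxidant response element core in MTHFD2 (16.1%). A match describes the letters of a window and not a bound site.

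PHGDH, PSAT1 and PSPH, which make serine in 3 consecutive steps, were lower in both hairpin groups, PSAT1 by the largest amount and PSPH by the smallest. PHGDH, the first and committed enzyme, was at 112, 108 and 108 CPM in shNC, at 70.1, 77.3 and 70.3 in sh1-HUMT and at 64.7, 69.2 and 63.4 in sh2-HUMT. Every hairpin library was below every shNC library, with log2 fold changes of -0.59 (SE 0.045, adjusted p = 1.4e-06) and -0.73 (SE 0.045, adjusted p = 2.1e-07) in edgeR's quasi-likelihood fit of all genes. PSAT1, the aminotransferase of the second step, was at 276, 276 and 280 CPM in shNC, at 168, 177 and 179 in sh1-HUMT and at 148, 145 and 151 in sh2-HUMT. The 3 groups were separate from each other, and the log2 fold changes against shNC were -0.67 (SE 0.028, adjusted p = 7.2e-09) and -0.91 (SE 0.028, adjusted p = 4.5e-10). PSPH, the phosphatase that releases serine, was at 49.0, 49.3 and 45.8 CPM in shNC, at 42.7, 44.7 and 42.5 in sh1-HUMT and at 40.9, 42.9 and 42.9 in sh2-HUMT. Both hairpin groups lay below shNC by a narrow margin and overlapped each other, with log2 fold changes of -0.15 (SE 0.044, adjusted p = 0.0222) and -0.19 (SE 0.045, adjusted p = 0.00676). In sh1-HUMT, PSPH no longer passed when shNC replicate 1 or 2 or sh1-HUMT replicate 1 or 3 was left out (adjusted p up to 0.0866). Both were lost with a correction for GC content and length (log2 -0.07, adjusted p = 0.210, and -0.11, adjusted p = 0.0644). In bulk RNA, fewer cells of a kind and less RNA per cell cannot be told apart.

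**Figure D1:**
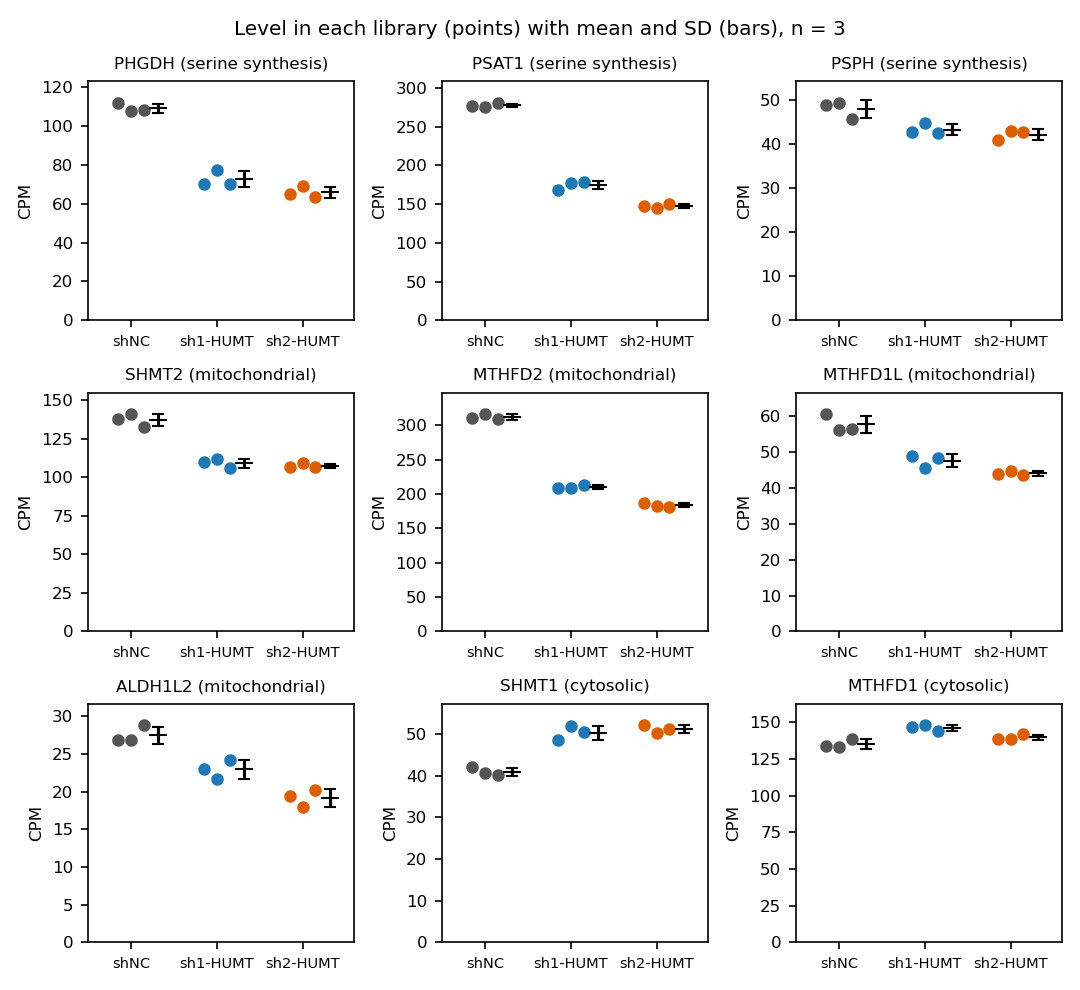
Level of each of the 9 genes in CPM (y axis from 0) in each library (points) by group (x axis), with the mean and SD of 3 libraries as bars. The 7 serine synthesis and mitochondrial genes are lower in both hairpin groups than in shNC, while SHMT1 rises from 40.9 to 50.3 and 51.1 CPM.

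The 4 mitochondrial one-carbon enzymes also fell in both hairpin groups, MTHFD2 most. SHMT2, which makes glycine from serine in the mitochondrion, was at 138, 141 and 133 CPM in shNC, at 110, 112 and 106 in sh1-HUMT and at 107, 109 and 106 in sh2-HUMT. The hairpin groups overlapped each other and both lay below shNC, with log2 fold changes of -0.33 (SE 0.032, adjusted p = 9.9e-06) and -0.35 (SE 0.032, adjusted p = 5.5e-06). MTHFD2, the mitochondrial dehydrogenase and cyclohydrolase, was at 311, 316 and 309 CPM in shNC, at 208, 208 and 214 in sh1-HUMT and at 187, 183 and 181 in sh2-HUMT. As for PSAT1, the 3 groups were separate, with log2 fold changes of -0.57 (SE 0.024, adjusted p = 8e-09) and -0.77 (SE 0.025, adjusted p = 5.3e-10). MTHFD1L, which releases formate in the mitochondrion, was at 60.6, 56.1 and 56.5 CPM in shNC, at 48.9, 45.5 and 48.3 in sh1-HUMT and at 44.0, 44.8 and 43.5 in sh2-HUMT. All 6 hairpin libraries were lower than the lowest shNC library, and the log2 fold changes were -0.28 (SE 0.044, adjusted p = 0.00048) and -0.39 (SE 0.044, adjusted p = 3.5e-05). ALDH1L2, which oxidizes the carbon unit to carbon dioxide and yields NADPH, was at 26.8, 26.8 and 28.8 CPM in shNC, at 23.0, 21.7 and 24.3 in sh1-HUMT and at 19.5, 17.9 and 20.3 in sh2-HUMT. Its groups did not overlap, and the log2 fold changes were -0.26 (SE 0.063, adjusted p = 0.00807) and -0.52 (SE 0.064, adjusted p = 7.1e-05).

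Neither cytosolic enzyme passed the test for a fall, and SHMT1 rose in both hairpin groups. SHMT1, the cytosolic counterpart of SHMT2, was at 41.9, 40.5 and 40.2 CPM in shNC, at 48.5, 51.9 and 50.4 in sh1-HUMT and at 52.1, 50.2 and 51.1 in sh2-HUMT. Each hairpin library was above each shNC library, with log2 fold changes of 0.30 (SE 0.041, adjusted p = 0.00016) and 0.32 (SE 0.041, adjusted p = 7.9e-05). MTHFD1, the cytosolic enzyme with dehydrogenase, cyclohydrolase and formate ligase activities, was at 134, 133 and 139 CPM in shNC, at 147, 148 and 144 in sh1-HUMT and at 139, 139 and 142 in sh2-HUMT. The sh1-HUMT libraries lay above shNC (log2 0.11, SE 0.027, adjusted p = 0.00668). The sh2-HUMT libraries overlapped shNC and did not pass the test (log2 0.05, 95% interval -0.01 to 0.11, adjusted p = 0.203). With the GC and length correction the sh1-HUMT call was lost (log2 0.03, adjusted p = 0.384) and the sh2-HUMT value changed sign (-0.0073, adjusted p = 0.878). RefSeq places genes that overlap SHMT1 (SMCR8), MTHFD1 (ZBTB25) and MTHFD2 (SLC4A5) and have rows of their own in the deposited table. It also places overlapping genes without a row under their RefSeq symbol at SHMT1, SHMT2, MTHFD1L and ALDH1L2. Rows under other symbols were not looked for. RefSeq lists pseudogenes of PSAT1, PSPH, SHMT1, MTHFD1 and MTHFD2. Overlap was judged by the start and end of a gene and not by exons. No source states strand-specific counting, and whether reads of overlapping genes were told apart was not tested.

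**Figure D2:**
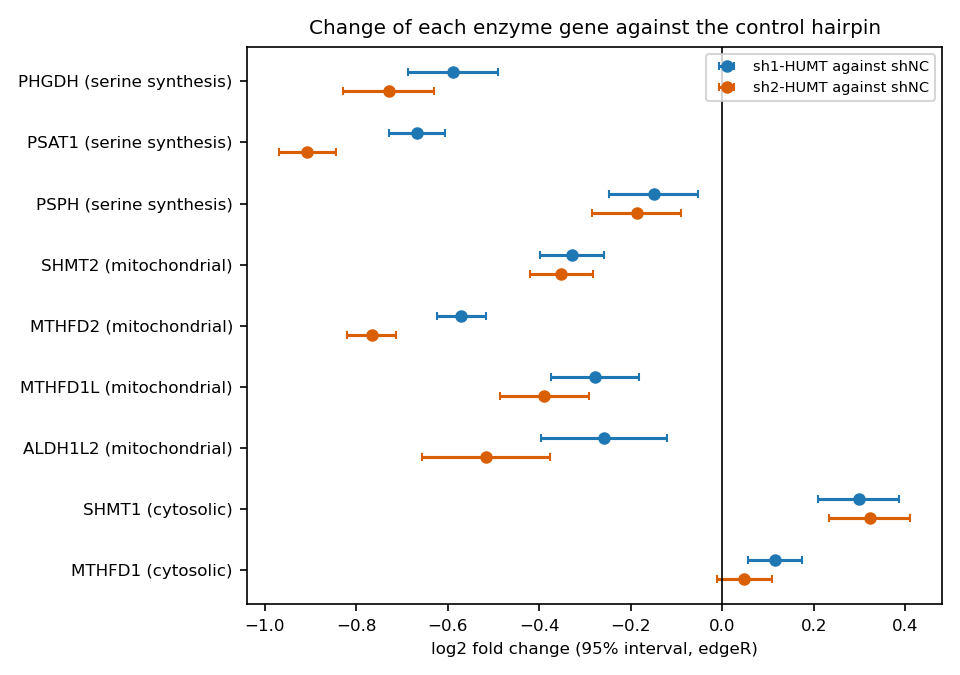
Log2 fold change of each gene (rows) against shNC in sh1-HUMT and sh2-HUMT (points) with 95% intervals from edgeR. The 7 serine synthesis and mitochondrial genes lie below 0 in both comparisons, SHMT1 lies above 0 in both, and the MTHFD1 interval in sh2-HUMT spans 0.

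In the sh1-HUMT comparison 7 members fell and 2 rose, where 16.3% and 15.7% of all genes tested fell and rose. In the sh2-HUMT comparison 7 fell and 1 rose, where 16.5% and 15.9% of all genes did. The median log2 fold change of the 9 was -0.28 and -0.39, beside -0.0012 and -0.0001 over all genes tested. For 7 members, all but SHMT1 and MTHFD1, the 6 hairpin libraries were all below the 3 shNC libraries, as they were for 17.4% of all genes tested. For 1 member, SHMT1, they were all above, as for 16.8% of all genes. Both comparisons use the same shNC libraries. The members were chosen with earlier results of these data known, so these counts are descriptive.

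The mitochondrial to cytosolic balance was measured within each library as the ratio of paired enzymes, which does not depend on the scaling between libraries. For SHMT2 to SHMT1, the log2 ratio of counts was 1.72, 1.80 and 1.72 in shNC, 1.18, 1.11 and 1.07 in sh1-HUMT and 1.04, 1.12 and 1.06 in sh2-HUMT. The 6 hairpin libraries were all lower, by 0.65 on average (value -0.65, exact two-sided permutation p = 0.0238, adjusted p = 0.0238 over 3 ratios). For MTHFD2 to MTHFD1, it was 1.22, 1.25 and 1.15 in shNC, 0.50, 0.49 and 0.57 in sh1-HUMT and 0.43, 0.40 and 0.35 in sh2-HUMT. The difference was -0.75 (exact permutation p = 0.0238), with no overlap between shNC and either hairpin group. For MTHFD1L to MTHFD1, it was -1.14, -1.25 and -1.30 in shNC, -1.59, -1.70 and -1.58 in sh1-HUMT and -1.66, -1.63 and -1.71 in sh2-HUMT. The difference was -0.41 (exact permutation p = 0.0238), again without overlap. This p is the smallest that 6 against 3 libraries can give. The test pools the libraries of both hairpin groups, and either group alone, at 3 against 3, cannot go below an exact p of 0.1. For MTHFD2 to MTHFD1 the pooled groups did not overlap each other. The ratios share numerators and denominators with the single gene tests above and are not further independent evidence.

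**Figure D3:**
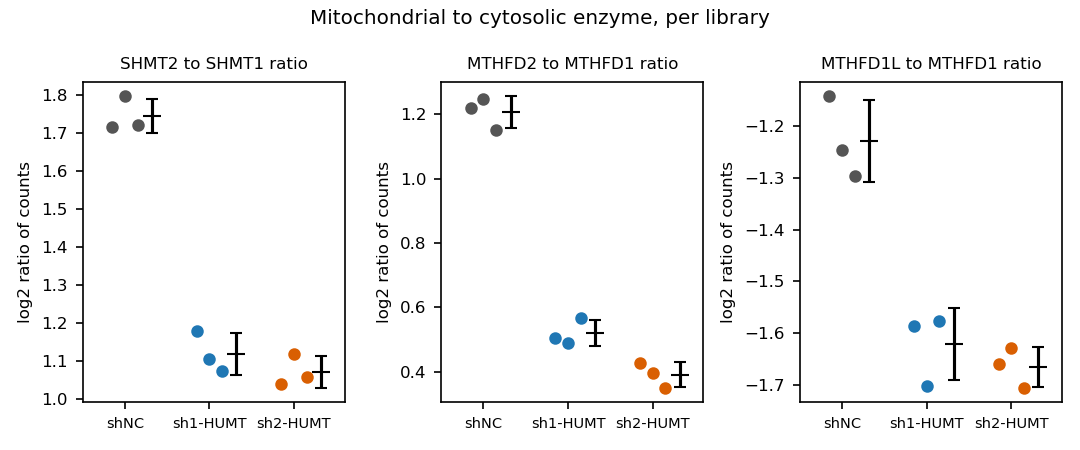
Log2 ratio of counts of a mitochondrial enzyme to its cytosolic counterpart (y axes, each with its own scale) in each library (points), with mean and SD of 3 libraries. All 6 hairpin libraries lie below all 3 shNC libraries in each panel.

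Levels of different genes are compared per length, as FPKM, fragments scaled to transcript length and library size. In shNC the order was MTHFD2 (137 ± 3.21, SD, n = 3), PSAT1 (121 ± 1.69), SHMT2 (65.6 ± 2.07), PHGDH (52.8 ± 0.793), MTHFD1 (37.5 ± 0.897), PSPH (16.8 ± 0.899), MTHFD1L (16.5 ± 1.21), SHMT1 (15.6 ± 0.265) and ALDH1L2 (3.99 ± 0.380). PSPH, MTHFD1L and SHMT1 could not be separated, since the ranges of neighbours overlapped. In both hairpin groups MTHFD2, PSAT1 and SHMT2 stayed the 3 highest, while MTHFD1 (42.1 ± 0.486 in sh1-HUMT and 40.0 ± 0.921 in sh2-HUMT) stood above PHGDH (36.4 ± 1.77 and 32.9 ± 1.35). SHMT1 (20.2 ± 0.766 and 20.3 ± 0.384) stood above PSPH (16.1 ± 0.604 and 15 ± 0.307) and MTHFD1L (13.7 ± 0.937 and 13.5 ± 0.725), and no neighbours overlapped. On this scale SHMT2 exceeded SHMT1 by a ratio of 4.20 ± 0.115 in shNC, 2.68 ± 0.128 in sh1-HUMT and 2.63 ± 0.0782 in sh2-HUMT. MTHFD2 exceeded MTHFD1 by a ratio of 3.67 ± 0.115, 2.28 ± 0.0657 and 2.09 ± 0.0654. The FPKM of PSPH in shNC (15.8 to 17.6) overlapped that in sh1-HUMT (15.5 to 16.7), unlike its CPM. That of MTHFD1 in sh2-HUMT (39.2 to 41.0) was above shNC (36.5 to 38.3), unlike its CPM. FPKM was used as deposited, without the scaling between libraries given to CPM. Its columns summed to 461600 to 465900 in shNC, 432600 to 448100 in sh1-HUMT and 438600 to 443600 in sh2-HUMT. The part of this in FPKM differences between groups was not tested.

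**Figure D4:**
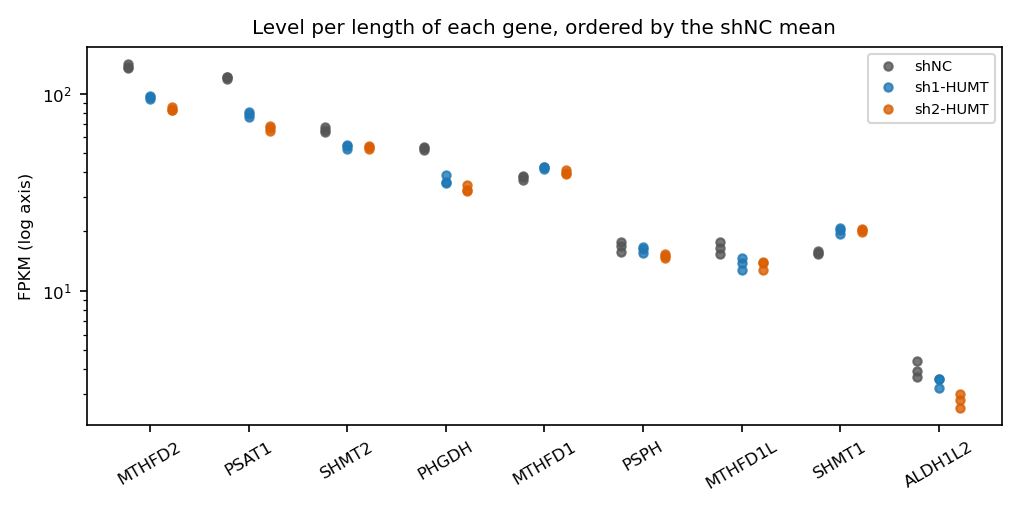
Level per length of each gene in FPKM (log axis) in each library, with genes ordered by their shNC mean. MTHFD2 and PSAT1 are the highest in every group, and ALDH1L2 the lowest.

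PSAT1 and MTHFD2 were also lower in sh2-HUMT than in sh1-HUMT, by -0.24 (SE 0.029, adjusted p = 0.0093) and -0.20 (SE 0.025, adjusted p = 0.0095) on the log2 scale in edgeR. Among all genes tested, 0.178% were lower in that comparison at the same threshold. PSAT1 no longer passed when sh2-HUMT replicate 1 or 2 was left out (adjusted p = 0.0667 and 0.0623), and MTHFD2 when any 1 of the sh2-HUMT libraries was (adjusted p = 0.0605 to 0.0762). ALDH1L2 differed by -0.26 (95% interval -0.40 to -0.12, adjusted p = 0.136) and passed with DESeq2 (adjusted p = 0.0420). PHGDH differed by -0.14 (interval -0.24 to -0.04, adjusted p = 0.250), MTHFD1L by -0.11 (interval -0.21 to -0.01, adjusted p = 0.352) and MTHFD1 by -0.07 (interval -0.13 to -0.01, adjusted p = 0.359). All sh2-HUMT libraries were below all sh1-HUMT libraries for PSAT1, MTHFD2, ALDH1L2, PHGDH, MTHFD1L and MTHFD1. The share of all genes separated in this way is not given here. SHMT2 (-0.02, interval -0.09 to 0.05), PSPH (-0.04, interval -0.13 to 0.06) and SHMT1 (0.02, interval -0.06 to 0.11) had intervals that spanned 0.

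Most regulators listed with these genes fell too. Their list, like the lists below, was chosen with earlier results of these data known. Of 7, 6 fell in each comparison in edgeR and none rose (median log2 fold change -0.56 and -0.62). Among all genes tested, 16.3% fell and 15.7% rose in sh1-HUMT, and 16.5% fell and 15.9% rose in sh2-HUMT. The exception was CEBPB (log2 0.02 and 0.12, adjusted p = 0.808 and 0.10 in edgeR), which passed as higher in sh2-HUMT with DESeq2 (adjusted p = 0.0395). ATF4 was at 458, 432 and 441 CPM in shNC, at 294, 313 and 296 in sh1-HUMT and at 287, 291 and 285 in sh2-HUMT. All hairpin libraries were below shNC (log2 -0.56, adjusted p = 7.7e-08, and -0.63, adjusted p = 2.5e-08, edgeR). TRIB3, a pseudokinase known to bind ATF4 and not itself a transcription factor, was at 302, 305 and 295 CPM in shNC, at 132, 146 and 133 in sh1-HUMT and at 115, 120 and 115 in sh2-HUMT. Its log2 fold changes were -1.13 (adjusted p = 8.1e-10) and -1.37 (adjusted p = 1.5e-10). MYC, a proto-oncogene transcription factor, fell by 0.62 in both comparisons (log2 -0.62, adjusted p = 1.7e-08 and 1.5e-08).

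Genes of serine and glycine transport and of the synthesis of other amino acids moved largely in the same direction as the serine enzymes. For comparison, 16.3% of all genes tested fell and 15.7% rose in sh1-HUMT, and 16.5% fell and 15.9% rose in sh2-HUMT. Of 9 transport genes tested, 6 fell and none rose in sh1-HUMT in edgeR, and 6 fell and 1, SFXN3, rose in sh2-HUMT (list medians -0.27 and -0.37). SFXN3 also passed as higher in sh1-HUMT with DESeq2 (log2 0.14, adjusted p = 0.0411, against 0.0551 in edgeR). SLC1A4, a neutral amino acid transporter, fell from 50.4 ± 0.875 CPM (SD, n = 3) to 31.4 ± 2.46 and 26.5 ± 0.493 (log2 -0.68, adjusted p = 1.5e-06, and -0.93, adjusted p = 1.1e-07, edgeR). SLC1A5, a glutamine transporter, fell by 0.38 and 0.47 on the log2 scale, and SLC38A2 by 0.31 and 0.42. Of 11 genes of other amino acid synthesis, 8 fell in sh1-HUMT and 7 in sh2-HUMT, and none rose by edgeR or DESeq2 (list medians -0.57 and -0.64). ASNS, asparagine synthetase, was at 166, 163 and 147 CPM in shNC, at 97.6, 95.5 and 94.2 in sh1-HUMT and at 80.2, 70.3 and 78.7 in sh2-HUMT (log2 -0.73 and -1.06, adjusted p = 2.5e-06 and 1.4e-07). PYCR1, of proline synthesis, fell by 0.65 and 0.64, and GPT2, an alanine aminotransferase, by 0.60 and 0.77.

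The rest of the folate and methyl group network was mixed, and some of its counts were near the shares over all genes. Those shares were 16.3% lower and 15.7% higher in sh1-HUMT, and 16.5% lower and 15.9% higher in sh2-HUMT. Of 13 other folate genes tested, 5 rose and 3 fell in sh1-HUMT, and 2 rose and 4 fell in sh2-HUMT, while DESeq2 called 6 and 5 in all. GGH, a folate hydrolase, had log2 fold changes of -0.14 and -0.14, which did not pass without shNC replicate 2, sh1-HUMT replicate 1 (first value), sh2-HUMT replicate 1 or 3 (second value), or with the GC and length correction (adjusted p up to 0.871). In the methionine cycle and transsulfuration list, 4 of 9 rose in each comparison, and 1 and 2 fell (list medians 0.12 and 0.09). MAT2A, which makes S-adenosylmethionine, fell by 0.27 and 0.29 on the log2 scale, while MTRR, methionine synthase reductase, rose by 0.20 and 0.18, and CTH, of cysteine synthesis, by 0.45 and 0.44.

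Of 11 purine synthesis genes, 2 rose and 1 fell in sh1-HUMT, near or below the 15.7% and 16.3% of all genes. In sh2-HUMT 2 rose and 5 fell, beside 15.9% and 16.5% of all genes. IMPDH2, IMPDH1 and PRPS2 had log2 values of -0.14, 0.11 and 0.15 in sh1-HUMT and -0.16, 0.14 and 0.14 in sh2-HUMT. Some of these calls rest on single libraries. In sh1-HUMT, IMPDH2 did not pass without shNC replicate 1, IMPDH1 without shNC replicate 1 or 3 or sh1-HUMT replicate 1 or 2, and PRPS2 without shNC replicate 2 or sh1-HUMT replicate 2 or 3 (adjusted p = 0.0506 to 0.0796). In sh2-HUMT, PRPS2 did not pass without shNC replicate 2 or any 1 sh2-HUMT library (adjusted p up to 0.104). With the GC and length correction IMPDH2 passed in neither comparison (adjusted p = 0.414 and 0.0946). Of the 4 genes of the glycine cleavage system, GCSH fell in sh1-HUMT (log2 -0.19, adjusted p = 0.0147), and none passed in sh2-HUMT, by edgeR or by DESeq2, where 2 had an unadjusted p below 0.05.

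**Figure D5:**
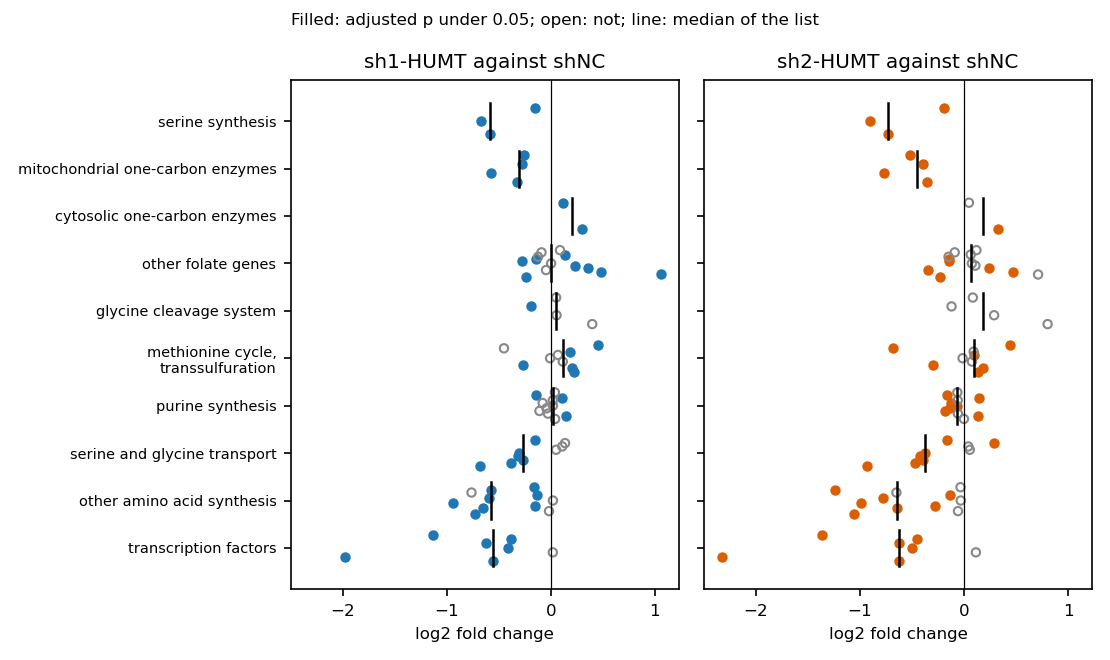
Log2 fold change (x axes) of each tested gene of 10 lists (rows) in both comparisons, filled where the adjusted p was under 0.05 and open where it was not, with the median of each list as a line. Serine synthesis, mitochondrial one-carbon, transport, amino acid synthesis and regulator lists have medians below 0 in both panels, and the cytosolic, other folate, glycine cleavage and methionine cycle lists have medians above 0. The other folate median in sh1-HUMT is only 0.0039, and no glycine cleavage gene passed as higher in either panel. The purine list median is 0.02 in one panel and -0.06 in the other.

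Likeness of pattern was measured as the root mean square difference between centred log2 CPM over the 9 libraries, among 12560 genes. The genes nearest to PHGDH were TARS (0.0508), BUD31 (0.0530) and ATF4 (0.0531). Those nearest to PSAT1 were GARS (0.0305), STC2 (0.0552) and SLC1A4 (0.0575), and those nearest to MTHFD2 were EREG (0.0273), TARS (0.0369) and HKDC1 (0.0440). TARS and GARS are aminoacyl-tRNA synthetases, as is MARS, which with the amino acid transporters SLC7A1 and SLC7A11 was nearest to ALDH1L2 (0.0521 to 0.0566). SHMT2 was nearest to MAP4K3, DCUN1D3 and SIM2 (0.0258 to 0.0272), and MTHFD1L to YTHDC1, GABRA5 and UHRF2 (0.0335 to 0.0389). PSPH was nearest to ARF1, AMIGO2 and SEC61A1, SHMT1 to BCL9L, JRK and LRP5, and MTHFD1 to ANO6, YY1 and IGSF3. Within the set, PHGDH and MTHFD2 were each other's nearest member (0.0622), as were SHMT2 and MTHFD1L (0.0639) and SHMT1 and MTHFD1 (0.120). The root mean square deviation from a gene's own mean was 0.0514 for MTHFD1 and 0.150 for SHMT1. MTHFD1 was therefore nearer to a flat line than to SHMT1, and their pairing does not show a shared pattern.

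Some cell type markers moved with the groups. Over 6 epithelial markers the summed level was 5386 to 5621 CPM in shNC, 4216 to 4500 in sh1-HUMT and 4327 to 4370 in sh2-HUMT, although CDH1 rose (log2 0.33 and 0.32). Over 2 leukocyte markers it was 50.6 to 53.4, 35.5 to 38.2 and 37.6 to 39.3 CPM, nearly all from CD68, while PTPRC did not exceed 0.223 CPM. Over 3 fibroblast markers it was 15.5 to 19.4, 20.9 to 22.1 and 23.9 to 25.4 CPM, nearly all from COL1A1, while DCN did not exceed 0.0470 CPM. Over 5 lung lineage markers it was 67.1 to 69.7, 76.8 to 81.6 and 77 to 78.8 CPM, nearly all from FOXA2. Over 3 endothelial markers it was 1.04 to 1.57, 1.35 to 2.37 and 2.06 to 2.49 CPM, and PECAM1 was higher in both comparisons (log2 0.87, adjusted p = 0.0269, and 1.0, adjusted p = 0.0129, edgeR). The part of these shifts in the results above was not tested.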

How the data were processed

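RNA was sequenced from 9 libraries, 3 per group, by the BGI500 protocol after Trizol extraction, per the labels' protocols. The authors deposited estimated counts with 2 decimals (91.3% of genes hold a value not whole, tolerance 0.005) and FPKM for 27059 genes. The FPKM unit is inferred from the values. RSEM 1.2.12, DESeq2 1.4.5, HISAT2 2.0.4 and Bowtie2 2.2.5 appear, with no role, in the submitters' processing notes. Their settings and the build were not given in the sources used here, and 6 group average columns were not used. The series' design text describes a different study and was not used for grouping.

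Rounded counts were fitted in edgeR 4.0.16 under R 4.3.3 with TMM factors (0.968 to 1.02), the filterByExpr filter, and the robust quasi-likelihood test of all 9 libraries in 1 fit. Adjusted p-values are Benjamini-Hochberg values over 18540 genes, with a threshold of 0.05, and CPM used TMM-scaled library sizes. The common biological coefficient of variation was 7.02%. SE was the log2 fold change divided by the root of F, and intervals are at 95%. Ratios used counts plus 0.5 and exact permutation tests (SciPy 1.17.1). DESeq2 1.42.0 was an alternative. The fit was tested on simulated data. The GC and length correction was chosen after seeing the data and covered 83.9% of genes tested.

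The members and lists were chosen with earlier results of these data known. Named genes are the members, LINC00857, ATF4, up to 3 genes of each list called the same way in both comparisons with the smallest larger adjusted p, and the 3 nearest patterns per member among genes of at least 5 CPM. SFXN3, CEBPB and GCSH were named after their values were seen, as exceptions in a count. Some genes that the rule names are not reported here.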

Additional observations from a re-analysis of the deposited data

Results flagged for a closer look

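PSAT1 and MTHFD2 differed between the hairpin groups by the test of that difference itself, sh2-HUMT against sh1-HUMT. For PSAT1 the log2 difference was -0.24 (adjusted p = 0.0093, edgeR), with all 3 sh2-HUMT libraries below all 3 sh1-HUMT libraries. For MTHFD2 it was -0.20 (adjusted p = 0.0095, edgeR), also with no overlap. PHGDH, MTHFD1, MTHFD1L and ALDH1L2 likewise had no overlap between the hairpin groups but did not pass this test in edgeR. The PSAT1 call was lost when sh2-HUMT replicate 1 or 2 was left out, but not replicate 3, and the MTHFD2 call when any 1 of the 3 was.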

How the results depend on the processing

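In both comparisons with shNC, 18 other settings left the count of members called within 1.5 times the main count, and only PSPH and MTHFD1 lost a call. With the GC and length correction 1 member rose in sh1-HUMT in place of 2, MTHFD1 in sh2-HUMT turned to -0.0073, and LINC00857 in sh2-HUMT to 0.036. Leaving out 1 library gave LINC00857 in sh2-HUMT values from -0.097 to 0.0080, and SHMT1 in sh2-HUMT against sh1-HUMT values from -0.0017 to 0.049. The cause was not tested.

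Between the hairpin groups, 53 genes were called, against 354 with DESeq2, 29 with the replicate block and 35 with only those 2 groups in the fit. Without 1 library the count ran from 1 (without sh2-HUMT replicate 1) to 155 (without sh1-HUMT replicate 2), that of members called from 0 to 2, and that of members called lower from 0 to 2. Deviations of same-numbered libraries had correlations of -0.0656 to 0.0893, and those of differently numbered libraries -0.142 to 0.118. No shared deviation by number was seen, which cannot tell whether same-numbered libraries shared a culture or a run. The replicate block changed no call of a member.

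For SHMT2 to SHMT1, MTHFD2 to MTHFD1 and MTHFD1L to MTHFD1, sh1-HUMT alone gave -0.63, -0.69 and -0.39, and sh2-HUMT alone -0.67, -0.81 and -0.44, where 3 against 3 libraries cannot go below an exact p of 0.1. Without 1 library they ran from -0.67 to -0.62, -0.78 to -0.73 and -0.45 to -0.37, where 6 against 2 cannot go below 0.0714. Those losses come from fewer samples.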
